A study of Rattus norvegicus with 57 samples.

Results

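The comparison described here is the change of the methapyrilene effect in rat liver during the second week of dosing: the difference between rats given 80 mg/kg and control rats on day 15, minus the same difference on day 8. It was formed from the sample titles and used 20 of the 57 arrays, 5 in each of 4 groups, and was measured for all 10725 genes that passed a filter on signal. The study dosed male Han Wistar rats, 8 to 10 weeks old, with 0, 30 or 80 mg/kg of methapyrilene in carboxymethylcellulose by mouth each day, and controls were given the vehicle. Livers were taken on days 4, 8 and 15, and on day 24, which followed 14 days of dosing and 10 days of recovery. Total RNA of liver homogenate was hybridised to Affymetrix rat expression arrays, and each value is a MAS5 signal, a brightness on a linear scale. The 4 groups compared were control and 80 mg/kg livers of day 8, and control and 80 mg/kg livers of day 15, all from rats untreated otherwise and housed alone. The labels call the samples of a group biological replicates. A gene was called when its adjusted p was under 0.05 (limma, moderated test of the contrast, Benjamini-Hochberg over all genes tested). The model was fitted to all 57 arrays in 12 groups, so the spread behind each standard error and p came from all of them.

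Methapyrilene is an antihistamine that causes liver tumours in rats and injures hepatocytes around the portal tracts. The hepatocyte makes most plasma proteins, bile acids and detoxifying enzymes, and it is rich in mitochondria. When a cell is short of amino acids or its mitochondria are stressed, the kinase arm called the integrated stress response raises translation of the transcription factor ATF4, which turns on genes of amino acid supply, the tRNA synthetases and the stress factors Atf3 and Nupr1. Type I interferon acts through a receptor at the cell surface and induces antiviral genes such as Mx1, Oas1a and Isg15.

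Between day 8 and day 15 the 80 mg/kg effect changed for 534 genes, 4.98% of those tested. It was higher on day 15 for 326 genes (3.04%) and lower for 208 (1.94%). The median change over all genes was 0.02 on the log2 scale, and 29 rises and 28 falls were at least 1. When each treated array was taken against the control mean of its day, the 5 arrays of day 15 all lay on one side of the 5 arrays of day 8 for 284 of the 326 rises and 152 of the 208 falls, where this held for 15.1% of all genes tested. The calls were made on these same arrays, so this describes them and is no further evidence. When only the 20 arrays of the contrast were fitted, 244 genes were called, and 219 of the 534 were among them. The count of 534 also depended on single arrays. It was 227 without replicate 5 of the 80 mg/kg day 8 group, 241 without replicate 2 and 276 without replicate 4 of the 80 mg/kg day 15 group. All 534 genes kept the sign of their change in each of the 20 fits with 1 array left out. They had been called on these same arrays, so a kept sign is no further evidence. When the arrays were shifted to a common median, the median over all genes moved from 0.02 to 0.11, and 87.2% of the calls were rises against 61.0% as reported.

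**Figure D1:**
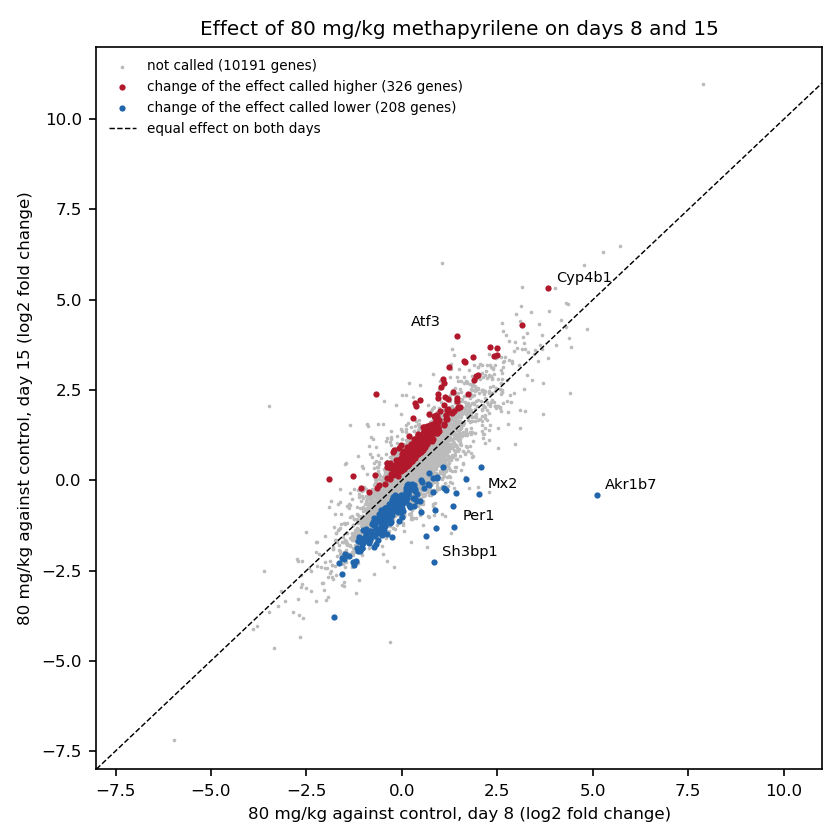
Each point is a gene, with the log2 fold change of 80 mg/kg against control on day 8 on the horizontal axis and on day 15 on the vertical axis, and the dashed line marks equal effects. Red points are the 326 genes whose effect was called higher on day 15 and blue points the 208 called lower, with Atf3 and Cyp4b1 above the line and Akr1b7, Mx2, Per1 and Sh3bp1 below it.

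More genes moved between the days in treated than in control livers. Comparing the treated arrays of day 15 with those of day 8 directly, with no control arrays, called 2205 genes (20.6%). Among the 326 rises, 271 also rose in the treated arrays alone, and among the 208 falls, 169 also fell there. This is a part of the same contrast and not an independent test. Control livers differed between the same days for 85 genes (0.793%), and that count was 29 without replicate 4 of the control day 15 group, 33 and 34 without replicates 2 and 1 of the control day 8 group, 47 without its replicate 5, and 53 and 54 without replicates 2 and 5 of the control day 15 group. The control change was larger in size than the treated change for 45 of the rises and 35 of the falls. The median change in the treated arrays was 0.41 for the rises and -0.48 for the falls, and in the control arrays it was -0.11 and 0.14.

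All 4 groups carried the signal of liver tissue: 7 of 8 hepatocyte marker genes were measured, and the signals of albumin (Alb) ran from 4530 to 7974 over the 20 arrays. No array repeated another, and the correlation between arrays of a group ran from 0.961 to 0.983. The actin 3′ to 5′ signal ratio, a measure of RNA integrity, differed between treated days by -0.0019 on the log2 scale (two-sided exact permutation test over 252 splits, p = 0.976, adjusted p = 0.976 over 12 tests). It differed between 80 mg/kg and control by -0.211 on day 8 (exact p = 0.0397, adjusted p = 0.119) and by -0.314 on day 15 (exact p = 0.00794, adjusted p = 0.0318). With that ratio as a covariate, 453 of the 534 genes were still called with the same sign. The median log2 signal of the arrays was higher at 80 mg/kg than in controls, by 0.221 on day 8 and by 0.136 on day 15. Both differences had an exact permutation p = 0.00794 (adjusted p = 0.0318 over the same 12 tests). Between treated days it differed by -0.0818 (exact p = 0.0952, adjusted p = 0.228). After a shift to a common median, 67 falls were called against 208. In a homogenate, fewer cells of a type and less RNA per cell cannot be told apart.

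Gene lists described which functions moved. Beside 3.04% of all genes, calls of a higher effect took 16 of 57 measured genes of nucleolar ribosome assembly (median change 0.42), 5 of 19 aminoacyl-tRNA synthetases (0.25), 16 of 76 mitochondrial ribosomal proteins (0.17), 3 of 15 mitochondrial chaperones and proteases (0.15), 3 of 17 cytosolic ribosomal proteins (0.24) and 4 of 24 genes of ATF4 and amino acid stress (0.56). Beside 1.94% of all genes, calls of a lower effect took 16 of 42 interferon-induced genes (median change -0.60), 4 of 18 complement genes (-0.39), 4 of 26 genes of bile acid synthesis and transport (-0.43), 3 of 23 ER chaperones and degradation genes (-0.30) and 2 of 19 coagulation genes (-0.31). None of those lists but the bile acid list had a call in the other direction, where Abcc4 rose. The lists of nucleolar genes, mitochondrial ribosomal proteins and interferon-induced genes were drawn up after values had been seen, so their counts describe these arrays only. Single arrays moved these counts too. Without replicate 5 of the 80 mg/kg day 8 group, 7 nucleolar genes, 2 tRNA synthetases, 8 mitochondrial and 1 cytosolic ribosomal protein and 1 gene of the ATF4 list were called higher, and 2 interferon-induced, 2 complement, 2 bile acid, 1 ER and 0 coagulation genes lower. Without replicate 2 of the 80 mg/kg day 15 group the counts were 8, 4, 11, 1 and 1 higher and 5, 2, 3, 1 and 0 lower in that order, and without its replicate 4 they were 11, 4, 8, 1 and 2 higher and 8, 2, 2, 1 and 1 lower. When the arrays were shifted to a common median, 9 interferon-induced, 1 complement, 1 bile acid, 1 ER and 0 coagulation genes were called lower, and the medians of these 5 lists stayed below 0. When only the 20 arrays of the contrast were fitted, 11 nucleolar genes, 2 tRNA synthetases, 6 mitochondrial and 1 cytosolic ribosomal protein, 1 mitochondrial chaperone and 4 genes of the ATF4 list were called higher, and 10 interferon-induced, 0 complement, 1 bile acid, 3 ER and 0 coagulation genes lower.

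**Figure D2:**
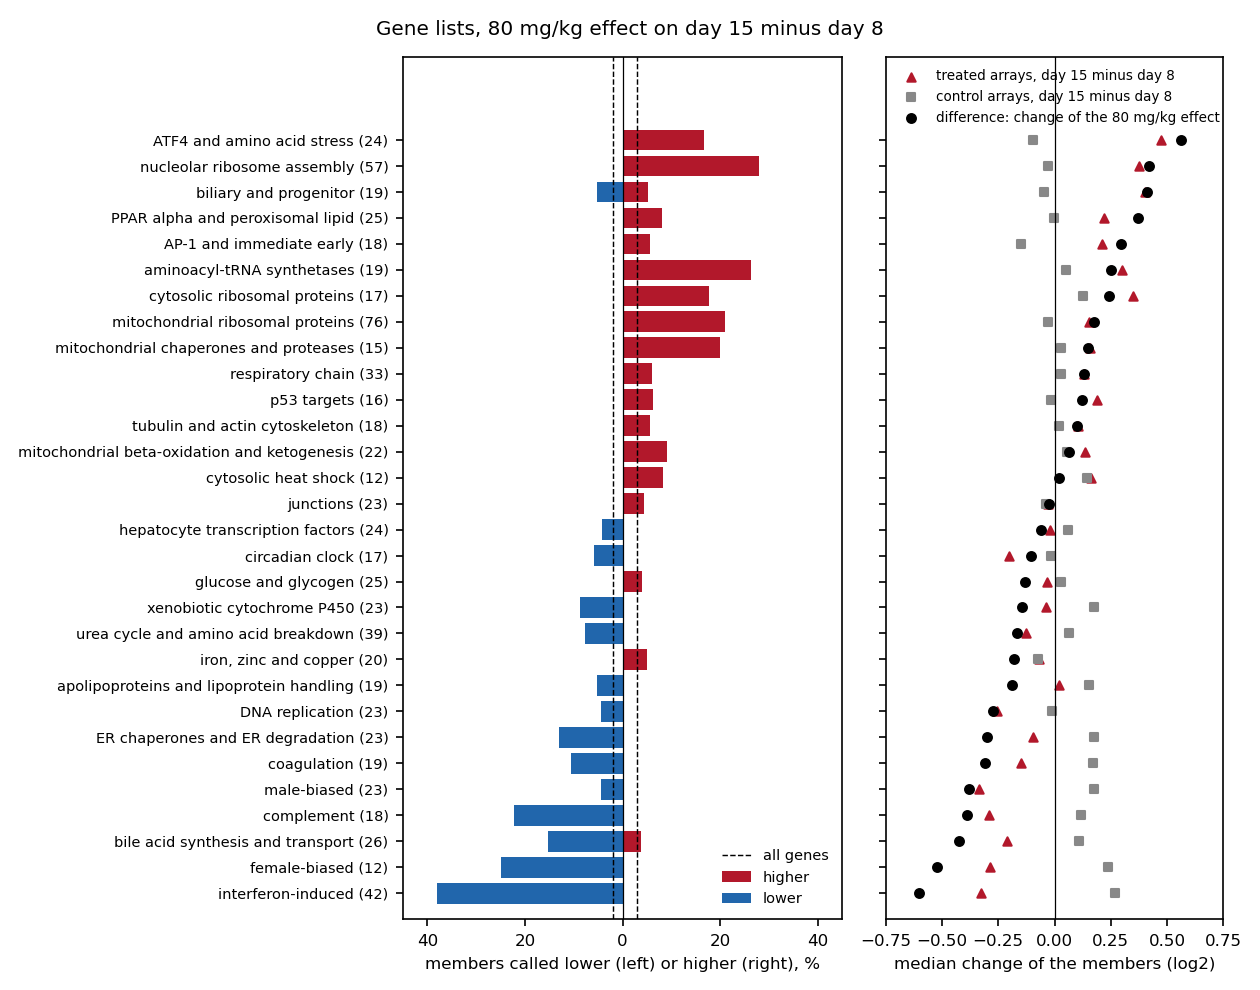
For each list with at least 1 call, the left panel gives the percent of measured members (number in parentheses) called higher or lower, with dashed lines at the 3.04% and 1.94% of all genes, and the right panel gives the median log2 change from day 8 to day 15 in treated arrays, in control arrays and in the 80 mg/kg effect. Nucleolar, tRNA synthetase and mitochondrial ribosomal lists have calls on the right only and the interferon-induced list on the left only, with a control median of 0.27 and a treated median of -0.33.

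The largest rises and falls were named only among genes whose treated arrays were separate between the days, each taken against its control mean. For those genes the separation was part of the choice and is no further evidence. Stress factors of the ATF4 pathway were among the largest rises. Nupr1, a small chromatin protein of the stress response, had a CARE sequence in its promoter, the C/EBP-ATF response element through which ATF4 acts. It is shown with the promoter of Iars1, the isoleucyl-tRNA synthetase, because both genes rose and hold the same 8 letters. The motif searched was TGATGNAA on both strands in the 300 bases from 250 before to 50 after each gene's start (RefSeq, GRCr8), and 2.08% of the 8980 tested genes with a promoter in the table held it (3.82% of all 27457 promoters), beside 4.4% of the 273 rises and 1.78% of the 169 falls with a promoter. Among the other called genes that are named, CARE was held by Aars1, Cyp4b1, Hspa9, Mars1, Rpl6 and Yars1, which rose, and by Phactr1, which fell. No CARE match was found for Atf3, Atf4 or Sars1. The E-box CACGTG, also searched, was held by 9.72% of the tested genes (6.65% of all promoters), 17.6% of the rises and 7.1% of the falls. Sequences run 5′ to 3′ along the gene, with the match in capitals, here the reverse complement of the motif. Nupr1 lies at chr1:190645852-190646151, minus strand, with the match starting at -55, and Iars1 at chr17:15193603-15193902, minus strand, with the match starting at -24.
Nupr1: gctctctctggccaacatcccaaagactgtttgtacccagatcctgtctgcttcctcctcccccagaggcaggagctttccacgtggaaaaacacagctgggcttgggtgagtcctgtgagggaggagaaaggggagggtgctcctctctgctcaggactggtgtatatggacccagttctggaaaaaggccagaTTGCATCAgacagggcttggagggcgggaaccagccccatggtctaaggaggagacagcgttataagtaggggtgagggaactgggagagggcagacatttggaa
Iars1: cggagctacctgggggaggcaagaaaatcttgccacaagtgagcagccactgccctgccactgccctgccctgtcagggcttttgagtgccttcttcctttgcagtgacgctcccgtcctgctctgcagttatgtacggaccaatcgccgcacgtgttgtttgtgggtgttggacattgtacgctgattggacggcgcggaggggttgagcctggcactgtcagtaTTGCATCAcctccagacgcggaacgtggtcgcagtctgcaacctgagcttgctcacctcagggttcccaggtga

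Nupr1 signals were 256, 292, 361, 379.6 and 424 in the control arrays of day 8 and 139, 152, 198, 215 and 415 in those of day 15. At 80 mg/kg they were 601, 671, 673, 1000.0 and 1160.0 on day 8 and 1445, 1690.0, 1877, 1957 and 2245 on day 15. Every day 15 treated array was above every day 8 treated array, and the control arrays were lower on day 15 except for 1. The effect of 80 mg/kg rose from 1.24 ± 0.28 (SE) on day 8 to 3.14 ± 0.28 on day 15, a change of 1.91 ± 0.39 (SE), adjusted p = 0.00297. Atf3, a transcription factor induced by many kinds of stress, followed. Atf3 signals were 12.9, 30.9, 44.9, 45 and 102 in the control arrays of day 8 and 12.9, 16.9, 19.2, 29.4 and 53 in those of day 15. The treated arrays gave 61.7, 79.7, 109.9, 143 and 153 on day 8 and 196, 248, 331, 625 and 677 on day 15. The treated groups did not overlap, while the control arrays of both days did. Its effect changed by 2.56 ± 0.78 (SE), adjusted p = 0.0442. Atf4 itself changed by 0.56 ± 0.17 (SE), adjusted p = 0.0477, and Slc3a2, the heavy chain of amino acid transporters, by 0.56 ± 0.17 (SE), adjusted p = 0.0383. Slc3a2 was named after its value was seen. Counts of members by sign, here and below, are given without the share of all genes, whose median change was 0.02. All 24 measured members of the list had a higher effect on day 15, the smallest by 0.00997, and the other 20 did not pass the test. Among them Ddit3, which encodes the stress factor CHOP and was named after its value was seen, differed between the days by 1.14 ± 0.36 (SE), adjusted p = 0.0514, and Asns, asparagine synthetase, by 1.03 ± 0.46 (SE), adjusted p = 0.181, also named after its value was seen. With 1 array left out, the call ended in 12 of the 20 fits for Atf3 (adjusted p up to 0.0904) and 13 of the 20 fits for Atf4 (adjusted p up to 0.0981), and in none for Nupr1. Of the 12 other settings, the call ended in 4 for Atf3 (adjusted p up to 0.0562) and 7 for Atf4 (adjusted p up to 0.088), and in none for Nupr1.

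The tRNA synthetases that rose were Sars1, Iars1, Yars1, Mars1 and Aars1, which charge tRNAs with serine, isoleucine, tyrosine, methionine and alanine. Sars1 signals were 203, 207, 219, 224 and 235 in the control arrays of day 8 and 231, 260.5, 267, 270.4 and 277 in those of day 15. In treated livers, day 8 held 392, 426, 498, 579 and 633 and day 15 held 934, 979, 1000.0, 1039 and 1093. The treated groups did not overlap, and the control arrays of day 15 were almost all above those of day 8. The effect of Sars1 changed by 0.76 ± 0.17 (SE), adjusted p = 0.00796. Iars1 changed by 0.72 ± 0.18 (SE), adjusted p = 0.0174, and Yars1 by 0.64 ± 0.16 (SE), adjusted p = 0.0179. Mars1 (0.45 ± 0.12, adjusted p = 0.0176) and Aars1 (0.35 ± 0.11, adjusted p = 0.0464) complete the called members and were named after their values were seen. The calls of Iars1 and Yars1 each ended without replicate 5 of the 80 mg/kg day 8 group (adjusted p = 0.0547 for each). That of Iars1 also ended when only the 20 arrays were fitted and when its probe sets were averaged (adjusted p = 0.169). In the treated arrays alone, 13 of the 19 measured synthetases rose and none fell, against 12% and 8.58% of all genes.

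A minority of the genes of ribosome making rose: 16 of 57 in the nucleolar list, 3 of 17 cytosolic and 16 of 76 mitochondrial ribosomal proteins. Of the nucleolar list, Ccdc86 changed by 1.12 ± 0.29 (SE), adjusted p = 0.0228, Dhx37, an RNA helicase, by 0.90 ± 0.24 (SE), adjusted p = 0.0236, and Wdr43, a factor of the small subunit processome, by 0.82 ± 0.17 (SE), adjusted p = 0.00368. Of its 57 measured members, 54 had a higher effect on day 15. The other probe set of Wdr43 differed by 0.20, and the mean of both was not called (adjusted p = 0.104). Other probe sets of Ccdc86 differed by 0.73 and 0.43, neither called, and the mean of its probe sets was not called either (adjusted p = 0.0667). Rpl14, a protein of the large cytosolic subunit, was measured at high signal. Rpl14 signals were 1236, 1244, 1256, 1284 and 1437 in the control arrays of day 8 and 1174, 1240.0, 1273, 1277 and 1334 in those of day 15. Rats given 80 mg/kg had 1924, 2009, 2154, 2330.0 and 2401 on day 8 and 2541, 3016, 3104, 3139 and 3238 on day 15. The treated groups did not overlap and the control groups did. Its effect changed by 0.51 ± 0.11 (SE), adjusted p = 0.00563, beside 0.44 ± 0.13 for Rps3 (adjusted p = 0.0384) and 0.30 ± 0.0919 for Rpl6 (adjusted p = 0.0474), and all 17 measured members of that list were higher. With 1 array left out, the call ended in 12 of the 20 fits for Rps3 (adjusted p up to 0.0806) and 14 of the 20 fits for Rpl6 (adjusted p up to 0.0863), in 1 fit for Ccdc86 (without replicate 5 of the 80 mg/kg day 8 group, adjusted p = 0.0643) and in 2 for Dhx37 (without replicate 5 of the control day 15 group and without replicate 2 of the 80 mg/kg day 15 group, adjusted p up to 0.0546).

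Of the mitochondrial chaperones and proteases, 3 of 15 rose. Lonp1 signals were 392, 393, 404, 431 and 439.9 in the control arrays of day 8 and 391, 397, 409, 435 and 448 in those of day 15. Under treatment the signals were 570.4, 708, 729, 739 and 922 on day 8 and 987, 1195, 1195, 1227 and 1290.0 on day 15. Lonp1, the ATP-dependent protease of the matrix, was higher in every treated array of day 15 than in any of day 8, and the 2 control groups covered the same range. Its effect changed by 0.68 ± 0.12 (SE), adjusted p = 0.000743. Hspa9, the mitochondrial Hsp70, changed by 0.49 ± 0.14 (SE), adjusted p = 0.0317, and Dnaja3, its co-chaperone, by 0.40 ± 0.10 (SE), adjusted p = 0.0179. The ribosomal proteins Mrps5 (0.69 ± 0.13 (SE), adjusted p = 0.00173), Mrps18b (0.62 ± 0.11 (SE), adjusted p = 0.00141) and Mrps31 (0.62 ± 0.17 (SE), adjusted p = 0.0301) rose. Mrps18b signals were 339.6, 359, 361, 415 and 419 in the control arrays of day 8 and 362, 375, 379, 381 and 382 in those of day 15. At 80 mg/kg they were 566, 576, 580.1, 672 and 739 on day 8 and 888, 894, 960.4, 996 and 1039 on day 15. The lowest treated array of day 15 was above the highest of day 8, and the controls of both days overlapped. The call ended, in fits with 1 array left out, in 8 of the 20 fits for Hspa9 (adjusted p up to 0.0843) and 6 of the 20 fits for Mrps31 (adjusted p up to 0.0791), and in no fit for Lonp1, Mrps5 or Mrps18b.

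Calls of a higher effect took 2 of 22 measured genes of mitochondrial beta-oxidation and ketogenesis and 2 of 25 of PPAR alpha and peroxisomal lipid, beside 3.04% of all genes, and none was called lower. When only the 20 arrays were fitted, these counts were 1 and 5. Plin2, the protein that coats lipid droplets, had no called effect on day 8. Plin2 signals were 1529, 1601, 1660.0, 1915 and 2060.0 in the control arrays of day 8 and 1479, 1492, 1589, 1620.0 and 2021 in those of day 15. The treated arrays gave 1500.0, 1503, 1518, 1582 and 1692 on day 8 and 2199, 2274, 2284, 2475 and 2853 on day 15. The day 8 treated arrays lay inside the range of their controls or just below it, and all 5 of day 15 lay above every other array of the 4 groups. The effect went from -0.16 ± 0.0987 (SE) to 0.56 ± 0.0987, a change of 0.72 ± 0.14 (SE), adjusted p = 0.00236. A second, dimmer probe set of Plin2 differed by 0.25 and was not called. Pdk4, the kinase that shuts pyruvate dehydrogenase, changed too. Pdk4 signals were 683, 722, 783, 861 and 954 in the control arrays of day 8 and 606, 791, 909, 978 and 1009 in those of day 15. In treated livers, day 8 held 546, 695, 731, 749 and 757 and day 15 held 1234, 1375, 1406, 1413 and 2395. Its treated arrays of day 15 were all above those of day 8. The change was 1.05 ± 0.27 (SE), adjusted p = 0.0179. Hadhb, the beta subunit of the trifunctional enzyme of fatty acid oxidation, changed by 0.61 ± 0.12 (SE), adjusted p = 0.00297, and its alpha subunit Hadha by 0.40 ± 0.11 (SE), adjusted p = 0.0236. The sign of Hadha turned to -0.1064 (adjusted p = 0.825) when its 2 probe sets were averaged, the second being dim, and its call ended without replicate 4 of the 80 mg/kg day 8 group (adjusted p = 0.055).

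**Figure D3:**
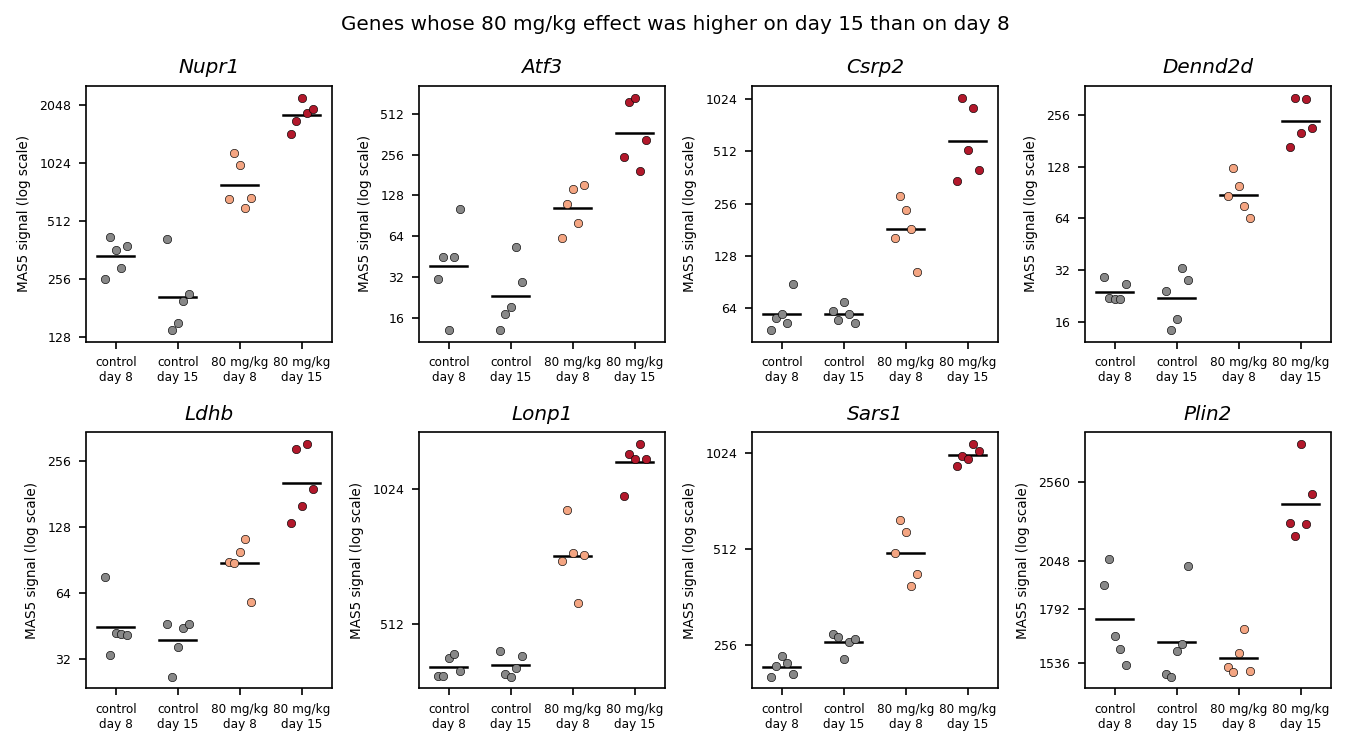
MAS5 signals (log scale) of 8 genes whose effect rose, 1 point per array and a bar at the geometric mean of the 5 arrays, for control and 80 mg/kg on days 8 and 15. In each panel the 5 treated arrays of day 15 lie above the 5 of day 8, and Nupr1 and Atf3 have lower control means on day 15. For genes named as largest rises, separate treated arrays against the control means were required by the choice.

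Several genes outside those lists also rose, named as largest rises under the rule that required separate treated arrays. Csrp2 is a LIM-domain protein of muscle and activated stellate cells. Csrp2 signals were 48, 52.9, 56.4, 59.2 and 87.8 in the control arrays of day 8 and 52.4, 55, 59.5, 61.9 and 69.5 in those of day 15. Rats given 80 mg/kg had 104, 163, 184, 236 and 284 on day 8 and 345, 397, 523, 904 and 1039 on day 15. The treated groups were separate, while all 10 control arrays were below every treated array of either day. The effect went from 1.62 ± 0.22 (SE) to 3.29 ± 0.22, a change of 1.67 ± 0.31 (SE), adjusted p = 0.00177. Dennd2d, a regulator of Rab proteins, and Ldhb, the heart subunit of lactate dehydrogenase, followed. Dennd2d signals were 21.5, 21.5, 21.9, 26.5 and 29.2 in the control arrays of day 8 and 14.3, 16.5, 24, 27.8 and 32.6 in those of day 15. Under treatment the signals were 64.1, 75.4, 85.9, 99.1 and 126 on day 8 and 165, 200.4, 214, 318 and 322 on day 15. Its treated arrays did not overlap between days and its change was 1.55 ± 0.30 (SE), adjusted p = 0.00236. Ldhb signals were 33.5, 41.1, 41.9, 42.3 and 75.4 in the control arrays of day 8 and 26.7, 36.3, 44.2, 46.3 and 46.4 in those of day 15. At 80 mg/kg they were 58.3, 87.8, 88.8, 98.1 and 113 on day 8 and 133, 158, 189, 288 and 304 on day 15. Its treated groups were also separate, with a change of 1.42 ± 0.33 (SE), adjusted p = 0.00974. Cyp4b1, a lung-type cytochrome P450, already had the largest effect on day 8 among the named rises, 3.83 ± 0.29 (SE), and reached 5.32 ± 0.29, a change of 1.50 ± 0.41 (SE), adjusted p = 0.0271. Zmat5, a zinc finger protein (1.78 ± 0.45), Nceh1, a cholesteryl ester hydrolase (1.74 ± 0.41), and Stbd1, a glycogen-binding protein (1.56 ± 0.39), were called in every fit with 1 array left out. The call of Cyp4b1 ended without replicate 5 of the 80 mg/kg day 8 group (adjusted p = 0.0553).

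Of 19 measured biliary and progenitor markers, 1 was called higher and 1 lower, beside 3.04% and 1.94% of all genes. Krt19, a keratin of bile duct cells, rose by 1.04 ± 0.29 (SE), adjusted p = 0.0301, and Onecut2, a transcription factor of liver and bile duct development, changed by -0.54 ± 0.17 (SE), adjusted p = 0.0443. In all, 16 of the 19 had a higher effect on day 15. The summed level of the list, as the mean log2 signal over its members, ran from 6.62 to 6.97 in the treated arrays of day 8 and from 6.88 to 7.46 in those of day 15, with 5.38 to 6.09 and 5.63 to 6.05 in the controls. The call ended, in fits with 1 array left out, in 6 of the 20 fits for Krt19 (adjusted p up to 0.0777) and 13 of the 20 fits for Onecut2 (adjusted p up to 0.105). That of Onecut2 also ended in 6 of the 12 other settings, a common median and averaged probe sets among them. Other probe sets of Onecut2 differed by -0.48, -0.21 and -0.096, none of them called. Among stellate cell and matrix markers, 0 of 26 were called by limma, with a median change of -0.04 and 1 at an unadjusted p under 0.05. The mast cell list had 0 of 5 called and 0 at that unadjusted p, and the endothelial list 0 of 16 with 2.

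Interferon-induced genes gave more falls than any other list. Their list was drawn up after values had been seen, so this ranking describes these arrays only. Of the 42 measured members, 21 were called higher and 2 lower than control on day 8 (34.2% and 16.6% of all genes), and 5 higher and 14 lower on day 15 (38.8% and 20.5%). The median effect went from 0.43 to -0.30. Between the days, 11 of them fell and none rose in the treated arrays alone (8.58% and 12% of all genes), and 2 rose and none fell in control arrays, where 0.793% of all genes were called. Irf7, the transcription factor that amplifies interferon production, and Oas1a, which makes the messenger that activates RNase L, are shown because both promoters hold the interferon-stimulated response element. The motif searched was GAAA, any 2 bases, GAAA, on both strands. It was found in 3.06% of the tested genes with a promoter (3.77% of all promoters), in 2.93% of the 273 rises and in 7.1% of the 169 falls. Among the other named genes it was held by Ddx60, Kmo and Per1, which fell, and by Dennd2d, which rose. No match was found for Isg15, Mx1, Mx2, Usp18, Rtp4 or Zbp1. Irf7 lies at chr1:205799974-205800273, minus strand, with 1 match starting at -69 on the reverse strand. Oas1a lies at chr12:41330216-41330515, plus strand, with 2 matches that overlap, starting at -41 and -35. Both are RefSeq promoters of GRCr8, with matches in capitals.
Irf7: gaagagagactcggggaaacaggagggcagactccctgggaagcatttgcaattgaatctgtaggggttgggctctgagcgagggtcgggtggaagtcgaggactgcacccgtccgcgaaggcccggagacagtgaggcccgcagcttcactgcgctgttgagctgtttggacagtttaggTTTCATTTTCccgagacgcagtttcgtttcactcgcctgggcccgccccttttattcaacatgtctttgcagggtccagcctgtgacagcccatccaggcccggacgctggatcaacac
Oas1a: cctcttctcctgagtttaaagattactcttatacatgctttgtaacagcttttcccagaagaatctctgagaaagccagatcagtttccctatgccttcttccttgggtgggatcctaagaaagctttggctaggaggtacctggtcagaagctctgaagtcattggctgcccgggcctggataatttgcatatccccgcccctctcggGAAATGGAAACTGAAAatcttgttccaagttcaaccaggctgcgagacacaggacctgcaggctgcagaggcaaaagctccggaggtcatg

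Ddx60 signals were 13.4, 17, 19.4, 22 and 35.2 in the control arrays of day 8 and 14.8, 14.9, 20.9, 24.6 and 32.8 in those of day 15. The treated arrays gave 46.4, 50.6, 67.3, 76.1 and 93.2 on day 8 and 15.4, 18.1, 19.7, 26.6 and 27.7 on day 15. Ddx60, an RNA helicase that senses viral RNA, was high in the treated arrays of day 8 alone, where every value was above all 15 others of the 4 groups. Its effect went from 1.67 ± 0.29 (SE) to 0.02 ± 0.29, a change of -1.65 ± 0.41 (SE), adjusted p = 0.0148, and the difference between the days in controls was 0.03 ± 0.29. Isg15 is a ubiquitin-like protein that is joined to others. Isg15 signals were 37.8, 44.9, 53.1, 61.8 and 65.6 in the control arrays of day 8 and 56, 66.8, 94.1, 101 and 119 in those of day 15. In treated livers, day 8 held 74.8, 106, 109, 124 and 186 and day 15 held 62.3, 62.8, 63.6, 74.6 and 88.2. The highest treated array of day 15 was above the lowest of day 8, and all control arrays of day 15 but 1 were above all of day 8. The change was -1.43 ± 0.40 (SE), adjusted p = 0.0301, made up of differences of -0.72 ± 0.28 (SE) in treated and 0.71 ± 0.28 in control arrays, neither called alone (adjusted p = 0.0632 and 0.228). Mx1, a dynamin-like antiviral GTPase, changed by -1.76 ± 0.47 (SE), adjusted p = 0.0236, Irf7 by -1.31 ± 0.36 (SE), adjusted p = 0.026, Usp18, the protease that removes Isg15, by -1.69 ± 0.49 (SE), adjusted p = 0.0337, Oas1a by -2.06 ± 0.56 (SE), adjusted p = 0.0271, and Mx2 by -2.40 ± 0.68 (SE), adjusted p = 0.0301.

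In controls the difference between the days was 0.998 ± 0.33 (SE) for Mx1, 1.22 ± 0.40 for Oas1a and 0.67 ± 0.25 for Irf7, beside -0.76 ± 0.33, -0.84 ± 0.40 and -0.65 ± 0.25 in treated arrays, none of the 6 called alone. Of the 42 measured interferon-induced genes, 41 had a lower effect on day 15, with a median of -0.33 in treated and 0.27 in control arrays. The mean log2 signal of the list ran from 6.93 to 7.31 in treated arrays of day 8 and from 6.53 to 6.86 in those of day 15, with no overlap. In controls it ran from 6.28 to 6.78 and from 6.66 to 7.03, which overlapped. Macrophage and monocyte markers had 0 of 20 calls by limma (4 at an unadjusted p under 0.05) and a median change of -0.20, with mean log2 signals of 7.95 to 8.24 and 8.00 to 8.39 in the treated groups and 7.08 to 7.51 and 7.34 to 7.65 in the controls. Lymphocyte markers had 0 of 11 calls by limma (1 at an unadjusted p under 0.05) and a median of -0.30. Their part in the interferon genes was not tested. With 1 array left out, the call ended in 9 of the 20 fits for Usp18 (adjusted p up to 0.0874), 7 of the 20 fits for Mx2 (adjusted p up to 0.0749), 4 of the 20 fits for Isg15 (adjusted p up to 0.0816) and 4 of the 20 fits for Oas1a (adjusted p up to 0.0712). It ended for Mx1 without replicate 5 of the 80 mg/kg day 8 group (adjusted p = 0.0608), and for Irf7 in that fit and without replicate 2 of the 80 mg/kg day 15 group (adjusted p up to 0.067). For Ddx60 it held in all 20. The call of Mx2 also ended when its probe sets were averaged (adjusted p = 0.152).

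**Figure D4:**
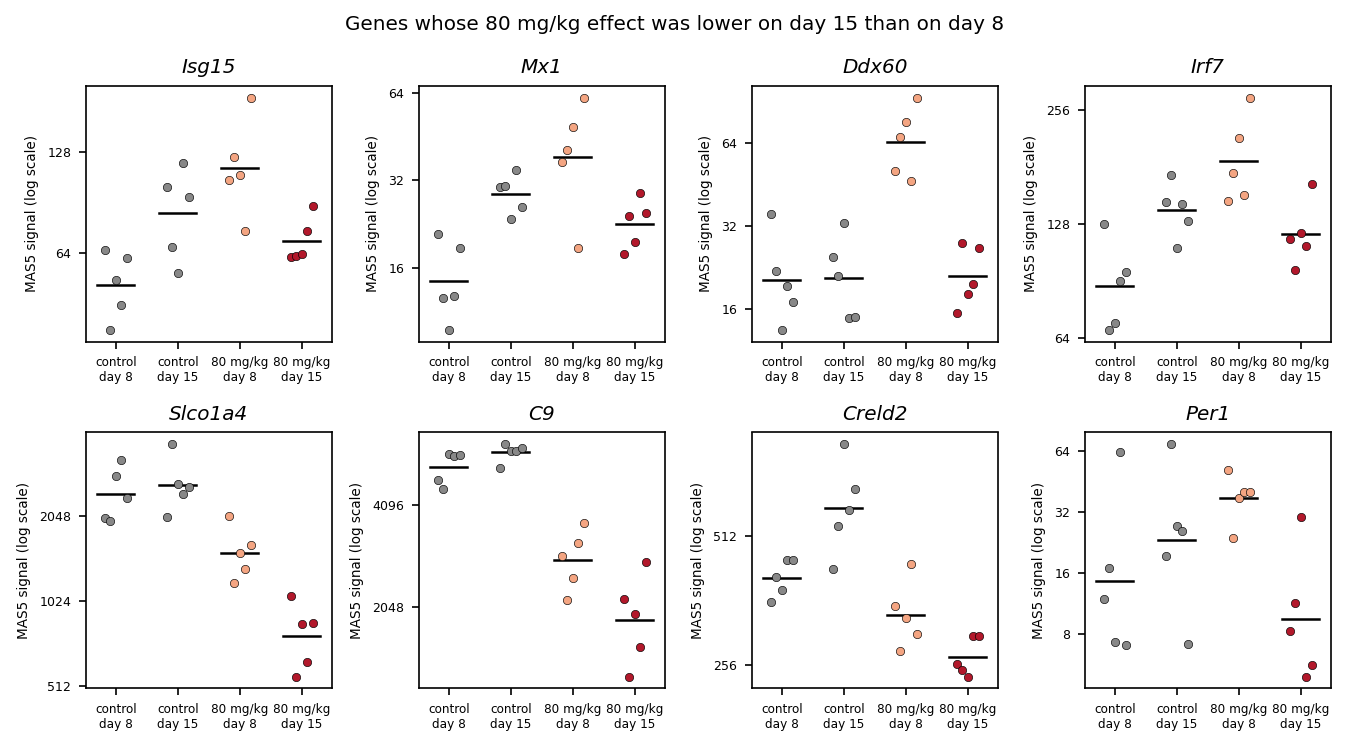
MAS5 signals (log scale) of 8 genes whose effect fell, 1 point per array and a bar at the geometric mean, for control and 80 mg/kg on days 8 and 15. Isg15, Mx1 and Irf7 had higher control means and lower treated means on day 15 than on day 8, Ddx60 was high at 80 mg/kg on day 8 alone, and Slco1a4 and C9 fell further below the controls.

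In the bile acid list 4 of 26 measured genes fell and 1 rose, and the other 21 did not pass the test. Slco1a4, an organic anion transporter of the sinusoidal membrane, had the largest of these falls. Slco1a4 signals were 1975, 2024, 2378, 2831 and 3235 in the control arrays of day 8 and 2035, 2453, 2596, 2665 and 3681 in those of day 15. Rats given 80 mg/kg had 1186, 1331, 1517, 1624 and 2046 on day 8 and 554, 623, 852, 854 and 1072 on day 15. The treated groups did not overlap, and all 10 were below the median of either control group. Its effect went from -0.69 ± 0.18 (SE) to -1.78 ± 0.18, a change of -1.09 ± 0.25 (SE), adjusted p = 0.00995, and a second probe set changed by -1.07. Slc27a5, the bile acid CoA ligase, changed by -0.79 ± 0.21 (SE), adjusted p = 0.0222, and Baat, which joins bile acids to amino acids, by -0.50 ± 0.13 (SE), adjusted p = 0.0236. Slc22a7, an organic anion transporter, changed by -0.46 ± 0.11 (SE), adjusted p = 0.0145. Abcc4, an export pump for bile acids and other anions, was the one member that rose, by 0.94 ± 0.28 (SE), adjusted p = 0.0353. Abcc4 signals were 25.2, 28.8, 31.4, 39.8 and 40.8 in the control arrays of day 8 and 28.8, 30.3, 31.6, 31.6 and 46.3 in those of day 15. Under treatment the signals were 88, 98, 141, 148 and 171 on day 8 and 193, 215, 249, 249.6 and 343 on day 15. The treated groups were apart, and all 10 control arrays lay below every treated array. The call of Abcc4 ended in 10 of the 20 fits (adjusted p up to 0.0963). Those of Slc27a5 ended without replicate 5 of the 80 mg/kg day 8 group and without replicate 4 of the 80 mg/kg day 15 group (adjusted p up to 0.062), and those of Baat in these fits and without replicate 2 of the latter group (up to 0.0654). At a common median the calls of Slc27a5, Baat and Slc22a7 ended.

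Complement genes that fell were C5, C9, C8g and C8a, parts of the membrane attack pathway. C9 signals were 4560.0, 4860.0, 5698, 5738 and 5782 in the control arrays of day 8 and 5269, 5919, 5927, 6034 and 6196 in those of day 15. At 80 mg/kg they were 2141, 2489, 2893, 3154 and 3620.0 on day 8 and 1273, 1563, 1954, 2165 and 2777 on day 15. The treated groups overlapped, with 4 of the 5 arrays of day 15 beyond all of day 8 once each was taken against its control mean. The change of C9 was -0.73 ± 0.18 (SE), adjusted p = 0.0145, that of C5 -0.82 ± 0.20 (SE), adjusted p = 0.014, and those of C8g and C8a -0.45 ± 0.14 (adjusted p = 0.0457) and -0.42 ± 0.12 (adjusted p = 0.034), C8a being named after its value was seen. The call ended, in fits with 1 array left out, in 13 of the 20 fits for C8g (adjusted p up to 0.129), and it ended in 7 of the 12 other settings, a common median among them. Of 18 measured complement genes, 17 had a lower effect on day 15. The calls of C5 and C9 ended when only the 20 arrays were fitted (adjusted p = 0.0785 for each), and that of C9 also at a common median. The coagulation list had a median difference between the days of -0.148 in treated and 0.172 in control arrays. Coagulation genes that fell were Klkb1, plasma kallikrein (-0.77 ± 0.21 (SE), adjusted p = 0.0261), and Serpinf2, the inhibitor of plasmin (-0.60 ± 0.17 (SE), adjusted p = 0.0302). Dpys, dihydropyrimidinase (-0.74 ± 0.21 (SE), adjusted p = 0.0301), and Cbs, cystathionine beta-synthase (-0.59 ± 0.17 (SE), adjusted p = 0.0301), fell too. Both were listed under urea cycle and amino acid breakdown. Each of these 4 calls ended in 3 to 7 fits with 1 array left out and also at a common median.

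Creld2, an ER protein induced when proteins misfold, had an ER stress response element in its promoter and is shown for that reason. The motif searched was CCAAT, any 9 bases, CCACG, on both strands, found in 0.167% of the tested genes with a promoter (0.0765% of all promoters), in 0% of the rises and in 0.592% of the falls, where it was 1 gene. The promoter lies at chr7:121789134-121789433, plus strand (RefSeq, GRCr8), with the match at -145 as the reverse complement in capitals.
Creld2: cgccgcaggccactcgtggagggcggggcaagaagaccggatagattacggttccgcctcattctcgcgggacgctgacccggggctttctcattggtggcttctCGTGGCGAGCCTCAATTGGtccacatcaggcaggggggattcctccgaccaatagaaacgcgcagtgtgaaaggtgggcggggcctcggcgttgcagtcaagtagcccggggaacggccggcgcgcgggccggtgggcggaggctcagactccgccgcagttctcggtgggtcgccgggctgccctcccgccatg
Creld2 signals were 358, 383, 409.6, 449 and 450.5 in the control arrays of day 8 and 428, 539, 587, 657 and 835 in those of day 15. The treated arrays gave 276, 303, 330.3, 352 and 440.1 on day 8 and 241, 250.2, 257, 299 and 299.5 on day 15. Controls of day 15 were mostly above those of day 8, and all treated arrays of day 15 were below the 4 highest of day 8. The effect went from -0.28 ± 0.16 (SE) to -1.15 ± 0.16, a change of -0.87 ± 0.22 (SE), adjusted p = 0.0179, made up of -0.32 ± 0.16 in treated and 0.54 ± 0.16 in control arrays, neither called alone (adjusted p = 0.135 and 0.0775). Dnajb9, a co-chaperone of BiP, changed by -0.66 ± 0.20 (SE), adjusted p = 0.043. That was made up of -0.21 ± 0.14 in treated and 0.45 ± 0.14 in control arrays, neither called alone (adjusted p = 0.309 and 0.106). Pdia6, a disulfide isomerase, changed by -0.35 ± 0.0949 (SE), adjusted p = 0.0254. Of the 23 measured ER genes, 22 had a lower effect on day 15, with a median difference between the days of -0.096 in treated and 0.174 in control arrays. With 1 array left out, the call ended in 13 of the 20 fits for Dnajb9 (adjusted p up to 0.0949) and 5 of the 20 fits for Pdia6 (adjusted p up to 0.061).

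Per1, a repressor of the circadian clock, was among the largest falls. Per1 signals were 7.06, 7.32, 11.9, 16.9 and 63.6 in the control arrays of day 8 and 7.09, 19.4, 25.8, 27.3 and 69.3 in those of day 15. In treated livers, day 8 held 23.9, 37.5, 40.2, 40.2 and 51.7 and day 15 held 4.91, 5.6, 8.23, 11.4 and 30.3. Among the treated arrays, 1 of day 15 was above the lowest of day 8, and the control arrays of both days overlapped. Its change was -2.65 ± 0.75 (SE), adjusted p = 0.031. It was the 1 call of 17 measured clock genes, beside 1.94% of all genes called lower. The call ended in 7 of the 20 fits (adjusted p up to 0.0732), and the time of day at which livers were taken was not analysed here. Akr1b7, an aldo-keto reductase, fell by 5.51 ± 1.42 (SE), adjusted p = 0.0191. Akr1b7 signals were 0.61, 1.11, 2.61, 14.7 and 24.1 in the control arrays of day 8 and 22.1, 43.2, 68, 109 and 156 in those of day 15. Rats given 80 mg/kg had 36.7, 52, 86.7, 406 and 457 on day 8 and 29.7, 30.2, 40.2, 68.3 and 110.4 on day 15. The control arrays of day 8 reached far below the filter level of 17.09, so the size of its fall is not well determined. In controls, 4 of the 5 arrays of day 8 were below all of day 15, a change of 4.15 ± 1.0 (SE), adjusted p = 0.0305. The treated groups overlapped and differed by -1.36 ± 1.0 (SE), adjusted p = 0.361. Sh3bp1, a regulator of Rac, changed by -3.11 ± 0.71 (SE), adjusted p = 0.00914 and Hand1, a transcription factor of the heart, by -2.19 ± 0.48 (SE), adjusted p = 0.00698, both at low signal, where the size of a fold change is uncertain.

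Genes of mitosis were high on both days, and none passed the test of a change between them. Of 28 measured mitosis genes, 0 were called by limma (1 at an unadjusted p under 0.05, median -0.24), and on day 8 all 28 were called higher than control, on day 15 27, beside 34.2% and 38.8% of all genes. DNA replication had 1 call of 23, beside 1.94% of all genes called lower. It was Ccne2, cyclin E2, which fell by 1.69 ± 0.53 (adjusted p = 0.0486), a call that ended in 13 of the 20 fits (adjusted p up to 0.121). Of 28 measured Nrf2 and antioxidant genes, 0 were called by limma (5 at an unadjusted p under 0.05). Their effects were called higher for 17 on each day. Among the p53 targets Aen, an exonuclease of cell death, was the 1 call of 16 (0.80 ± 0.22 (SE), adjusted p = 0.0276), beside 3.04% of all genes. That call ended when only the 20 arrays were fitted (adjusted p = 0.056) and, with 1 array left out, in 4 of the 20 fits for Aen (adjusted p up to 0.0787).

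Arrays of day 4 and day 24 do not enter the contrast itself, but they share in the spread behind its p. They come from other rats, so no animal was followed over time. A gene of small spread is called more easily in each contrast, which the shares of all genes do not take into account. On day 4, 172 of the 326 rises (52.8%) were already higher than control, beside 18.3% of all genes, and 5 were lower. Of the 208 falls, 81 (38.9%) were lower, beside 9.19%, and 8 were higher. On day 24, after recovery, 27 rises (8.28%) were higher, beside 7.15%, and 15 (4.6%) were lower, beside 3.08%. Of the falls, 15 (7.21%) were lower, beside 3.08%, and 11 (5.29%) higher, beside 7.15%. At a common median, 181 rises were lower on day 24. Those rises were called anew under that scaling and are not the same 326. The share of all genes lower on day 24 under it is not given here, so the 181 cannot be set against 3.08%. The median effect of the rises was 0.29 on day 4, 0.36 on day 8, 0.90 on day 15 and -0.01 on day 24, and that of the falls -0.23, -0.32, -0.88 and -0.08. Without replicate 5 of the 80 mg/kg day 8 group, the rises higher on day 4 were 76 of 137 and the falls lower on day 4 34 of 90. Without replicate 2 of the 80 mg/kg day 15 group they were 76 and 37, and 8 rises were higher and 6 falls lower on day 24.

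The effects of single genes on the 4 days are given side by side. Ddx60 stood at 0.39 ± 0.30 (SE) on day 4, at 1.67 ± 0.29 on day 8, at 0.02 ± 0.29 on day 15 and at 1.60 ± 0.30 on day 24 (adjusted p = 0.000644). Isg15 stood at 0.22 ± 0.30, 1.15 ± 0.28, -0.27 ± 0.28 and 0.68 ± 0.30, the last with an adjusted p of 0.137. Csrp2 went from 0.59 ± 0.24 on day 4 through 1.62 ± 0.22 and 3.29 ± 0.22 to 0.10 ± 0.24, and Lonp1 from 0.61 ± 0.0871 through 0.82 ± 0.0821 and 1.50 ± 0.0821 to -0.03 ± 0.0871. Slco1a4 was at -0.02 ± 0.19 on day 4 and still lower than control on day 24, -0.67 ± 0.19 (SE), adjusted p = 0.0164.

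**Figure D5:**
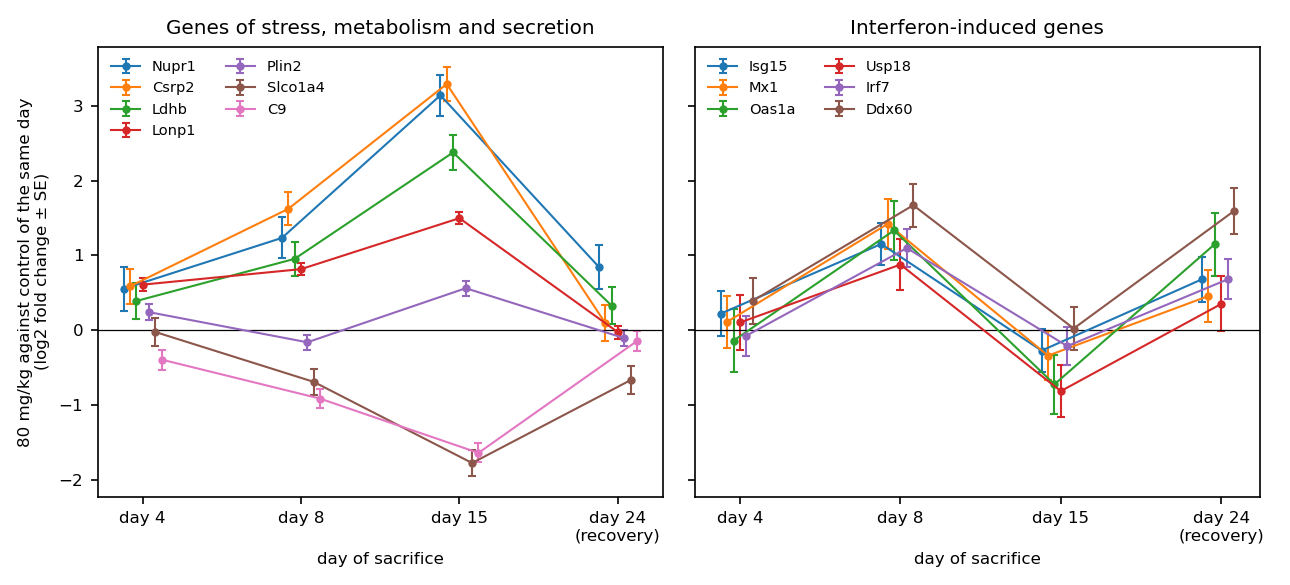
Log2 fold change of 80 mg/kg against the control of the same day, with its standard error, on days 4, 8, 15 and 24 for 7 genes of stress, metabolism and secretion (left) and 6 interferon-induced genes (right). Csrp2 peaks at 3.29 on day 15 and Slco1a4 is lowest there at -1.78, whereas Ddx60 is high on days 8 and 24 and near 0 on day 15.

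At 30 mg/kg the same contrast, which shares the control arrays, called 2 genes (0.0186%). They were Enc1, an actin-binding protein (1.76 ± 0.31 (SE), adjusted p = 0.00732), and Tap1, the peptide transporter of antigen presentation (-1.05 ± 0.19 (SE), adjusted p = 0.00732), both named after their values were seen. At 80 mg/kg Enc1 changed by 1.16 ± 0.31 (SE), adjusted p = 0.0266, and Tap1 differed by -0.57 ± 0.19 (SE), adjusted p = 0.0647, which did not pass. Comparing the doses directly over the second week, with no control arrays, called 128 genes (1.19%), 76 higher (0.709%) and 52 lower (0.485%) at 80 mg/kg. That count moved with single arrays: it was 11 without replicate 2, 31 without replicate 4, 75 without replicate 3, 222 without replicate 5 and 277 without replicate 1 of the 80 mg/kg day 15 group. Without replicates 1, 2, 4 and 5 of the 80 mg/kg day 8 group it was 54, 234, 75 and 18. Without replicates 1, 2 and 3 of the 30 mg/kg day 8 group it was 51, 43 and 64, and without replicates 1, 2, 3 and 4 of the 30 mg/kg day 15 group 67, 30, 51 and 68. Csrp2 differed between doses by 1.80 ± 0.31 (SE), adjusted p = 0.00225, Ldhb by 1.34 ± 0.33 (SE), adjusted p = 0.0333, Lonp1 by 0.55 ± 0.12 (SE), adjusted p = 0.016 and Slco1a4 by -1.24 ± 0.25 (SE), adjusted p = 0.0115. For these the change at 30 mg/kg was -0.13 ± 0.31 (SE), 0.08 ± 0.33, 0.13 ± 0.12 and 0.16 ± 0.25. Pdk4, Dennd2d, Hand1, C5, Slc22a7, Mrps5 and Abcc4 also passed that test.

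Nupr1, Isg15, Ddx60 and Irf7 did not pass the test between doses. At 30 mg/kg the difference for Nupr1 was 1.77 ± 0.39 (SE), adjusted p = 0.0707, and the doses differed by 0.14 ± 0.39 (SE), adjusted p = 0.899. Its signals at 30 mg/kg were 165, 211, 229, 341 and 549 on day 8 and 426, 517, 550.0, 586 and 843 on day 15, with 1 value of day 8 above the 2 lowest of day 15. Isg15 differed between the days by -1.03 ± 0.40 at 30 mg/kg, with a difference between doses of -0.40 ± 0.40 (SE), adjusted p = 0.653, Ddx60 by -1.11 ± 0.41, with -0.54 ± 0.41 (SE), adjusted p = 0.52, and Irf7 by -0.73 ± 0.36, with -0.59 ± 0.36 (SE), adjusted p = 0.405. Ddx60 signals at 30 mg/kg were 21.6, 27, 27.6, 32.5 and 38 on day 8 and 9.58, 11.4, 14.2, 17.3 and 17.6 on day 15, with no overlap. At these standard errors the doses may differ in either direction.

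Of the 80 named genes that were called, 23 were called in each of the 20 fits that left out 1 array and under each of the other 12 settings in which they were measured. Zmat5, Ddx60, Hand1 and Sh3bp1 were not measured under the stricter filter, so 11 settings stand behind them. The 23 include Nupr1, Csrp2, Dennd2d, Ldhb, Stbd1, Nceh1, Zmat5, Lonp1, Mrps5, Mrps18b, Rpl14, Sars1, Hadhb, Pdk4, Plin2 and Aldoa among the rises, and Slco1a4, Creld2, Ddx60, Hand1, Sh3bp1 and Akr1b7 among the falls. The last of the 23 is Myh1, a muscle myosin, whose probe sets disagreed: 4 rose and 1 fell by 2.57. Probe sets that match several genes of a family cannot be assigned to 1 member.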

How the data were processed

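The authors deposited 1 table of 57 arrays, whose values are MAS5 signals, an intensity on a linear scale, per the submitters' processing notes and the range of the values. The MAS5 version is not given in the sources used here. Per the values, each array had been scaled to a trimmed mean of 99.992, so levels are relative within an array, and their number limits the precision. Affymetrix control probe sets (57 of 31099) were left out. Of the probe sets, 20826 had 1 gene symbol, 436 several and 9831 none in the platform annotation, and 20758 of the named ones matched RefSeq. Signals were log2 transformed. A gene was kept where at least 4 arrays had a signal over 17.09, the median of the table, read from its brightest probe set, which left 10725 genes, 2759 of them with several probe sets. limma 3.58.1 (R 4.3.3) fitted 12 group means over all 57 arrays with eBayes and a trend. The step was tested on simulated data.

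Named genes were the 15 largest rises and the 15 largest falls among called genes with a symbol that is not a placeholder, a group mean over that same signal in 1 or more of the 4 groups, and treated arrays of day 15 all on one side of those of day 8. From each list came up to 3 called genes in the direction with more calls and up to 2 in the other, or the gene of largest change where none was called. The comparison and the lists were chosen with earlier results of these data known, and 3 of the 48 lists after values of this contrast had been seen. Some lists share members. The p-values measure the spread between the samples of a group. Motifs were matched with Python 3.11.15.

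The alternatives tried were each array left out, the 20 arrays alone, a replicate block, array weights, no variance trend, other scalings (quantile, common median), other filters (none, stricter), an offset before the logarithm, other summaries of probe sets (their mean, each on its own) and the actin ratio as a covariate.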

Additional observations from a re-analysis of the deposited data

Results flagged for a closer look

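The 80 mg/kg effect differed between day 15 and day 8 for 80 of the 98 named genes, by the interaction term of limma. On the log2 scale the effect rose for Atf3 2.56, Nupr1 1.91, Zmat5 1.78, C19h16orf74 1.76, Nceh1 1.74, Cyfip2 1.70, Csrp2 1.67, Ifrd1 1.61, Pkib 1.58, Stbd1 1.56, Dennd2d 1.55, Cyp4b1 1.50, Prr15 1.43, Ldhb 1.42, Myh1 1.39, Ccdc86 1.12, Pdk4 1.05, Krt19 1.04, Abcc4 0.94, Dhx37 0.90, Wdr43 0.82, Aen 0.80, Sars1 0.76, Plin2 0.72, Iars1 0.72, Mrps5 0.69, Lonp1 0.68, Ireb2 0.67, Yars1 0.64, Mrps18b 0.62, Mrps31 0.62, Hadhb 0.61, Atf4 0.56, Aldoa 0.55, Tpm1 0.55, Hspb8 0.54, Cldn2 0.52, Rpl14 0.51, Hspa9 0.48, Rps3 0.44, Hadha 0.40, Dnaja3 0.40, Rpl6 0.30, Uqcrc1 0.29 and Cyc1 0.27. It fell for Akr1b7 -5.51, Sh3bp1 -3.11, Per1 -2.65, Mx2 -2.40, Hand1 -2.19, Oas1a -2.06, Mx1 -1.76, Ccne2 -1.70, Usp18 -1.69, Ddx60 -1.65, Isg15 -1.43, Phactr1 -1.39, Irf7 -1.31, Rtp4 -1.31, Zbp1 -1.15, Slco1a4 -1.09, Hsd17b2 -0.98, Creld2 -0.87, C5 -0.82, Slc27a5 -0.79, Klkb1 -0.77, Cyp2j3 -0.77, Dpys -0.74, C9 -0.73, Dnajb9 -0.66, Serpinf2 -0.60, Cbs -0.59, Cyp2a1 -0.58, Lipc -0.55, Onecut2 -0.54, Kmo -0.53, Baat -0.50, Slc22a7 -0.46, C8g -0.45 and Pdia6 -0.35. Standard errors and adjusted p-values of those the text turns on stand with their results.

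In 30 of 392 groups of 5 arrays, 1 signal lay far from the other 4, by a gap of over 0.71 of the range of the group, where chance gives about 1 group in 20. The signals were Abcc4 46.3 (control day 15 replicate 1), Baat 3262 (80 mg/kg day 8 replicate 5), C19h16orf74 14.2 (control day 8 replicate 4), C19h16orf74 1.93 (control day 15 replicate 3), C9 5269 (control day 15 replicate 1), Cldn2 317 (control day 15 replicate 4), Cyfip2 59.1 (80 mg/kg day 15 replicate 2), Cyp2j3 958 (control day 15 replicate 2), Dnajb9 442 (80 mg/kg day 15 replicate 4), Dpys 1379 (80 mg/kg day 8 replicate 5), Dpys 1511 (control day 15 replicate 2), Ldhb 75.4 (control day 8 replicate 1), Lipc 3558 (control day 8 replicate 4), Lonp1 987 (80 mg/kg day 15 replicate 1), Mcpt1 13.9 (control day 8 replicate 3). The others were Mcpt1 5.39 (80 mg/kg day 15 replicate 5), Nceh1 335 (80 mg/kg day 15 replicate 5), Pdk4 546 (80 mg/kg day 8 replicate 4), Pdk4 2395 (80 mg/kg day 15 replicate 3), Phactr1 9.21 (80 mg/kg day 8 replicate 1), Phactr1 5.04 (80 mg/kg day 15 replicate 1), Pkib 18.5 (control day 15 replicate 2), Prf1 30.3 (control day 8 replicate 4), Rpl14 1437 (control day 8 replicate 3), Slc4a1 22.6 (control day 8 replicate 3), Sult2a2 0.17 (80 mg/kg day 15 replicate 3), Tagln 13.3 (80 mg/kg day 8 replicate 2), Tagln 5.84 (control day 15 replicate 2), Wdr43 76.3 (control day 15 replicate 2) and Zmat5 64.9 (80 mg/kg day 15 replicate 3).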

How the results depend on the processing

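All 534 calls kept their sign under 31 of the 32 other settings in which they were measured (504 of them were measured under the stricter filter), and 531 did when the probe sets of a gene were averaged. Some settings could not change a sign. Without the variance trend, with only the arrays of the contrast, or with each probe set on its own, the estimate of a gene stays the same. That also holds under another filter where the same probe set is read. The calls were made on these same arrays, so the kept signs are no further evidence. For most changed counts the cause was not tested. Fitting only the arrays of the contrast, with fewer residual degrees of freedom, gave 244 calls (149 higher, 95 lower), 1 for 30 mg/kg with 0 lower, and 26 between doses (22 higher, 4 lower), with 8 rises lower on day 4. Contrasting treated arrays alone gave 2205 (1285 higher, 920 lower). Quantile normalization gave 339 falls, 288 calls between doses (148 higher, 140 lower), 12 rises lower on day 4, and 130 falls lower and 17 higher on day 4. A common median gave 67 falls, 467 falls in treated arrays, 45 control calls (20 higher, 25 lower), and 127 higher and 17 lower between doses. It gave 23 rises lower and 35 falls lower and 2 higher on day 4, and on day 24 13 rises higher and 181 lower, 27 falls lower and 1 higher. Under it the median turned from negative to positive for the lists Nrf2, endothelial, hepatocyte transcription factors, junctions, proteasome and stellate cell.

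No filter gave 80 calls between doses (41 higher), 5 falls higher on day 4, and on day 24 17 rises higher, 8 lower and 7 falls lower. The stricter filter gave 2 lower at 30 mg/kg, 203 between doses (89 lower) and 14 falls higher on day 4. Averaged probe sets gave 2 lower at 30 mg/kg, 3 rises lower on day 4, and 6 falls lower and 7 higher on day 24, and turned Hadha to -0.1064. All probe sets gave 1481 falls in treated arrays, 134 control calls (59 higher, 75 lower) and 9 rises lower on day 4. No variance trend gave 9 falls lower on day 24. Array weights gave 159 control calls (61 higher, 98 lower), 4 at 30 mg/kg (2 higher, 2 lower), 351 between doses (205 higher, 146 lower), 8 rises lower and 17 falls higher on day 4, and on day 24 26 rises lower, 27 falls lower and 21 higher. The actin covariate, chosen after seeing the data, left 453 of the 534 calls.

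With 1 array left out, calls ran from 227 to 761 (137 to 461 higher, 90 to 302 lower), in treated arrays from 1687 to 2265 (968 to 1331, 698 to 934), in controls from 29 to 90 (11 to 38, 18 to 52), at 30 mg/kg from 2 to 4 (1 to 2, 1 to 3) and between doses from 11 to 277 (7 to 160, 4 to 119). On day 4, rises ran from 76 to 247 higher and 4 to 7 lower, and falls from 34 to 132 lower and 4 to 21 higher. On day 24, rises ran from 8 to 34 higher and 6 to 20 lower, and falls from 6 to 22 lower and 7 to 18 higher.

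With the replicate number as a replicate block, 498 of the 534 genes were called. The numbers did not pair the arrays: residuals of same-numbered arrays correlated from -0.141 to 0.0819, and 2 of 20 arrays correlated best with their own number. Many low signals, such as those of Akr1b7 and Per1, are near the level where probe sets do not differ from background, which the deposited signals do not state.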
